A study of Mus musculus with 2 samples.

Results

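Nuclear receptors and their coregulators were described in injured mouse kidneys, with and without the gene for estrogen sulfotransferase (EST, the product of Sult1e1), the enzyme that inactivates estrogens by adding sulfate. All mice were 8-week-old male C57BL/6 animals, and their kidneys were taken 24 h after a 30-min period of warm ischemia on both sides. Tissue of 3 wild-type mice (180 mg) formed the WT pool and tissue of 6 knockout mice (124 mg) formed the EST KO pool. Each pool was read on 1 Affymetrix array, so neither the spread between mice nor a test of the genotypes can be had, and every ratio compares these 2 arrays. Both pools carried the injury, and the labels do not give the knockout allele or the cells in which it acts. In the labels, 1 protocol field gives liver as the tissue of the EST KO pool, while its other fields give kidney. Of 16 proximal tubule markers, 16 were above background in the EST KO pool. Albumin, the defining hepatocyte transcript, lay below background in both pools (487.9 in WT and 522.3 in EST KO). Of 15 hepatocyte markers on the array, however, 7 were above background in at least 1 pool, 5 higher and 2 lower in EST KO. Among them Ttr (transthyretin) read 1716 in WT and 11957 in EST KO. The tissue of the pool was not tested.

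The set was 44 genes chosen by name, as genes that encode nuclear receptors, coactivators and corepressors. Of the 18194 genes on the array with a single symbol, 42 were members, read by 118 of 45101 probe sets. Nr1h2 and Ncor1 had no probe set under a single symbol.

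Nuclear receptors are transcription factors, and most bind DNA through a zinc finger domain, mainly at copies of the core element AGGTCA. Many switch genes on or off with a ligand that enters another conserved domain. Without an activating ligand many hold corepressors such as NCoR1, and with it they hold coactivators of the p160 family (Ncoa1, Ncoa2, Ncoa3) or PGC-1 (Ppargc1a, Ppargc1b). In kidney they are known for control of proximal tubule identity (HNF4A), fatty acid burning (PPAR alpha), mitochondrial energy supply (the estrogen-related receptors with PGC-1 alpha), and salt handling (the mineralocorticoid receptor).

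Of the 42 members on the array, 18 lay above background in at least 1 pool (42.9%, against 41.1% of all named genes). Background was 676.1 for the WT array and 638.3 for the EST KO array, the 95th percentile of 129 probe sets for taste, olfactory and vomeronasal receptors and for keratin-associated proteins. Values under it were set to it before log2 was taken, and the folds that result are given as "at least". In pooled tissue, fewer cells of a type and less RNA per cell cannot be told apart. Of the 18 members, 1 (Hnf4a) was at least 2-fold higher in the EST KO pool, against 3.08% of the 7346 genes with a ratio. None of the 18 was at least 2-fold lower, against 1.43% of those genes. At 1.5-fold, 5 members were higher (Hnf4a, Nrip1, Rora, Nr1h4 and Ppara; background 8.62%) and none was lower (background 7.57%). Nr1h4 and Ppara lay above background in the EST KO pool alone, so they could enter only as higher. Ppargc1a lay above it in the WT pool alone, so it could enter only as lower. Among the 15 members above background in both pools, 9 were higher and 6 lower, with a median log2 ratio of 0.09, against a median of −0.05 over the 6115 genes of that kind. The count at 1.5-fold was 3 of 15 with members above background in both pools only. It was 3 of 13 measured members with background at the 99th percentile, some of them without a ratio. With the mean of each gene's probe sets it was 3 of 18, and with a pseudocount 2 of 18. It was 6 of 30 with background at the 75th percentile. Each array divided by its median, centring on the median gene and removal of the intensity trend each gave 6 of 18. The share over all genes at 1.5-fold was not computed for these alternatives. The count at 2-fold was 2 of 18 when each array was divided by its median, against 301 of 7421 genes. That division moved the median of all genes by 0.12 and the share of genes with a higher value from 44.4% to 56.9%.

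**Figure D1:**
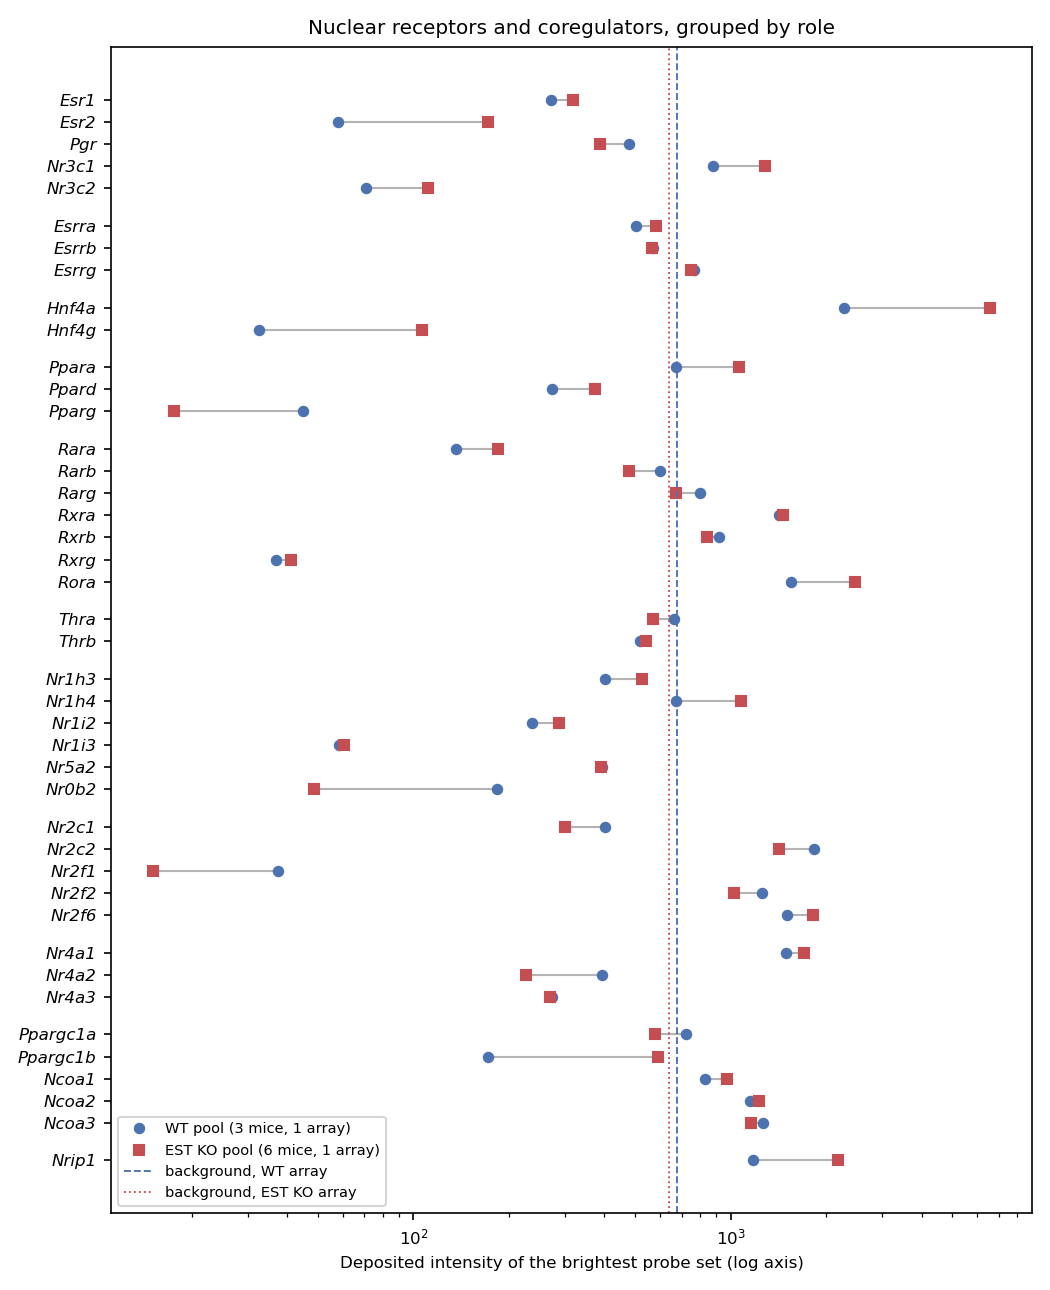
Deposited intensity (log axis) of the brightest probe set of each of the 42 members on the array, grouped by role, with the WT pool as circles, the EST KO pool as squares and the background of each array as a vertical line; 1 array per pool, so there are no error bars. Hnf4a shows the widest gap among members above background in both pools (2271 and 6578), and 24 members lie below background in both; levels are to be read within a gene, since probe sets of different genes do not share a scale.

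The size of a ratio can be set against the disagreement between probe sets of the same gene, the error that these arrays allow to be measured. Over 1663 genes with at least 2 probe sets above background in both pools, 1 probe-level SD of a log2 ratio was 0.28. Of the 18 members, 10 had a ratio within that SD of 0, 6 were higher by more (Hnf4a, Nrip1, Rora, Nr1h4, Ppara and Nr3c1) and 2 were lower by more (Nr2c2 and Nr2f2). Among all genes with a ratio, 20.8% were higher and 24.8% lower by more than that SD. This error leaves out the spread between mice and between arrays. It also comes from probe sets above background in both pools, while Nr1h4 and Ppara, above it in the EST KO pool alone, could enter only as higher. With each array divided by its median, Nr2c2 (−0.25) and Nr2f2 (−0.18) lay within 0.28 of 0. In that setting Nr2f6 (0.39), Ncoa1 (0.34) and Nr4a1 (0.30) lay beyond it as higher.

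**Figure D2:**
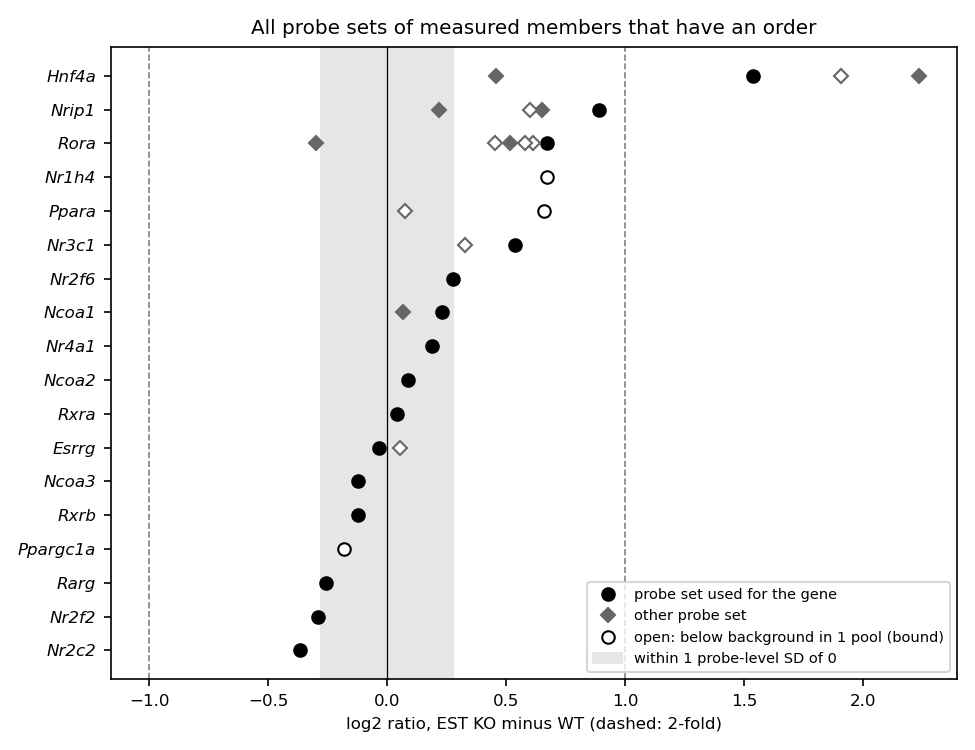
Log2 ratio (EST KO minus WT) of each of the 33 member probe sets with an order, 1 row per member. Circles mark the probe set used for the gene and diamonds the others. Open symbols are bounds, the ratio being at least as far from 0 as drawn. The grey band is 1 probe-level SD (0.28) around 0. All 4 probe sets of Hnf4a and all 4 of Nrip1 lie to the right of 0, while Rora has 5 to the right and 1 to the left.

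Hnf4a encodes hepatocyte nuclear factor 4 alpha, a receptor that drives proximal tubule and hepatocyte genes. It read 2271 in WT and 6578 in EST KO, a 2.90-fold higher level and a log2 ratio of 1.53. Its other probe sets read 1140 and 5353 (4.70-fold), 575.2 and 2530 (at least 3.74-fold, the former below background) and 707.4 and 969.7 (1.37-fold). All 4 were thus higher in the EST KO pool, but their log2 ratios spread from 0.46 to 2.23. Which transcripts of Hnf4a each probe set reads was not analysed here. The related receptor Hnf4g lay below background in both pools at each of its 3 probe sets (9.7 to 37.7 in WT, 1.5 to 106.8 in EST KO).

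Markers of the proximal tubule were higher beside Hnf4a. All 16 markers on the list were above background in at least 1 pool, 15 were higher and 1 lower in the EST KO pool, with a median log2 ratio of 0.77, and 6 were at least 2-fold higher. Slc5a12 and Gatm lay above background in the EST KO pool alone, so they could enter only as higher. Over the 14 markers above background in both pools, the middle log2 ratio was 0.87, and 13 had the larger value in EST KO. Intensities of all 16 markers summed to 101845 (WT) and 172428 (EST KO), and none is listed at 0. The log2 ratio of Hnf4a lay 0.77 above the median of these markers and above that of 14 of the 16. Markers of injured tubules went the other way, with 10 of 11 measured genes lower. Of the 11, 7 lay above background in both pools, and all 7 were lower. The 13 listed genes on the array, measured or not, summed to 119212 and 60443. The part of either list in the Hnf4a value was not tested.

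Of 17 measured genes known as HNF4A targets in the tubule, 16 were higher in EST KO and 9 reached 2-fold. Over these 17 the median log2 ratio was 1.22, which is the bound of G6pc. Slc2a2, G6pc, Slc34a3 and Slc5a12 lay above background in the EST KO pool alone, so they could enter only as higher. Slc2a2 and G6pc are among the 9. Both pools exceeded background for 13 of the genes. Of those, 12 had the larger value in EST KO and 1 the smaller, and the middle log2 ratio was 1.32. Pdzk1, a scaffold of the brush border, read 1070 and 8243 (7.71-fold higher), Ttr, the carrier transthyretin, 1716 and 11957 (6.97-fold) and Pck1, which commits carbon to gluconeogenesis, 701.5 and 4396 (6.27-fold). Apom, an apolipoprotein of high density lipoprotein, was the 1 lower gene of the list (1210 and 649.1, 1.86-fold). Of the 17, 8 also stand in the proximal tubule marker list. The other 9, which included Pdzk1, Ttr and Pck1, had 8 higher and 1 lower, with 5 at least 2-fold higher. Their median log2 ratio was 1.22, against 1.13 for the 8 shared genes. Limited to genes above background in both pools, it was 1.65 over 6 of the 9 and 1.32 over 7 of the 8. Intensities of all 9 summed to a 3.52-fold higher level in EST KO, and those of the 8 to a 2.19-fold higher level. The part of proximal tubule cells in either group was not tested.

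Promoter windows of Hnf4a are shown because it was the 1 member past 2-fold, and the table holds a window at each of its 2 starts. The windows come from the RefSeq promoter table of build GRCm38.p6 and run from 250 bases before to 50 bases after a start, 5′ to 3′ on the gene's strand. Capitals mark matches, on either strand, to the receptor core AGGTCA or to GTTAAT, the core bound by HNF1 factors of tubule and liver. The window of Nr1h4, which encodes the bile acid receptor FXR, is shown beside them because it also held the HNF1 core, a choice made after the search. Of 38 members with a window, 6 held that core: these 2 genes and Esrrg, Rxrg, Thrb and Nr5a2, whose windows are not shown. This is a count of genes, some of which have several windows, so it does not compare with a share of windows.
Hnf4a, upstream start, chr2:163506607-163506906, plus strand: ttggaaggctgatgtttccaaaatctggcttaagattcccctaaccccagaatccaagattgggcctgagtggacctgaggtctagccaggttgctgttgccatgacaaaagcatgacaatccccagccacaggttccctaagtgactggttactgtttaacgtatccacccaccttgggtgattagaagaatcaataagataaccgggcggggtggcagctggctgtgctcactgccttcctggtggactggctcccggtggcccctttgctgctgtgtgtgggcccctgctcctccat
Hnf4a, downstream start, chr2:163546905-163547204, plus strand: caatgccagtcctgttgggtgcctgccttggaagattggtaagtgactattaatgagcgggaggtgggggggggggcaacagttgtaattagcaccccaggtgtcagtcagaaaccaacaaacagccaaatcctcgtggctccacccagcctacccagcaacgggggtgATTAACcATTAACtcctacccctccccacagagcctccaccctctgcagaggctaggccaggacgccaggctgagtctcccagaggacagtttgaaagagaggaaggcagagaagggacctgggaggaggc
Nr1h4, chr10:89506609-89506908, minus strand: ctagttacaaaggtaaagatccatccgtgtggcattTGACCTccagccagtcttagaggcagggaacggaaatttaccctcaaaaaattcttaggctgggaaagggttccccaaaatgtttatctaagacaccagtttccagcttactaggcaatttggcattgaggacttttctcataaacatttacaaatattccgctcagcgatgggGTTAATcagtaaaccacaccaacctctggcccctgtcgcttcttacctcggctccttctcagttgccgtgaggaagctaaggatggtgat
The upstream Hnf4a window held neither core. The downstream window held GTTAAT 2 times, both on the opposite strand (bases −81 to −76 and −74 to −69 from the start), with a single base between them. Nr1h4 held GTTAAT once (bases −40 to −35) and AGGTCA once, on the opposite strand (bases −214 to −209).

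These cores are short and common. Of 32851 promoter windows in the table, 16.3% held AGGTCA and 7.1% held GTTAAT, and 0.548% held GTTAAT 2 or more times. Of the 59 windows of members, 9 held AGGTCA and 6 held GTTAAT. The 5 members at least 1.5-fold higher had 7 windows, of which 1 held AGGTCA and 2 held GTTAAT. The other measured members with a window searched here were 10 genes with 16 windows, of which 2 held AGGTCA and 1 held GTTAAT. A direct repeat of AGGTCA with 1 base between the copies, the form bound by HNF4A and by PPAR with RXR, was in no window of a member and in 0.0396% of all windows. A match describes the letters only.

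Nrip1 encodes RIP140, a corepressor that receptors recruit when their ligand is bound. It read 1178 in WT and 2182 in EST KO, a 1.85-fold higher level. Its other measured probe sets read 1269 and 1478 (1.16-fold), 705.1 and 1105 (1.57-fold), and 619.4 and 1023 (at least 1.51-fold). All 4 were higher in the EST KO pool, and the mean of probe sets gave a log2 ratio of 0.59 against 0.89 at the brightest. Dividing each array by its median brought the ratio to 1.00, on the 2-fold line. The ratio lay 0.12 above the median of the proximal tubule markers, whose part in it was not tested.

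Rora encodes ROR alpha, a receptor of the clock and of lipid metabolism. It read 1547 and 2466 at its brightest probe set, a 1.59-fold higher level in the EST KO pool. A second bright probe set read 1144 and 1635 (1.43-fold higher), and 3 more that lay below background in the WT pool were at least 1.37-fold to 1.53-fold higher. Another bright probe set went the other way, at 935.2 and 758.9 (1.23-fold lower), and 1 more had no order. With the mean over its measured probe sets, the log2 ratio was 0.36 in place of 0.67. Against the proximal tubule marker median, Rora lay at −0.09, and the part of those cells was not tested.

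Nr1h4 (FXR), which senses bile acids, read 672.0 in the WT pool, just under background, and 1077 in the EST KO pool, at least 1.59-fold higher at its single probe set. Slc51a, a subunit of the bile acid exporter that FXR switches on, read 328.6 and 1167 (at least 1.73-fold higher). Of 8 FXR targets on the array only 3 were measured, and the others of the 3 were lower: Aqp2, the collecting duct water channel, read 6236 and 3964 and Kng1, a kininogen, 1500 and 1061. Collecting duct markers had 3 measured genes higher, 3 lower and 1 without an order, Aqp2 among those lower. Nr1h4 lay at −0.09 and Ppara at −0.11 against the median of the proximal tubule markers, and 5 of the 16 markers had a lower ratio than each. The part of those cells in either value was not tested.

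Ppara, whose product switches on fatty acid oxidation, read 674.6 in the WT pool, just under background, and 1066 in the EST KO pool, at least 1.58-fold higher. A second probe set read 587.4 and 711.3, at least 1.05-fold higher, and the third lay below background in both pools. With a pseudocount the log2 ratio of Ppara was 0.37 and that of Nr1h4 0.38, against 0.66 and 0.67. Ppard and Pparg, the other receptors of this group, lay below background in both pools (273.1 and 373.5 at the brightest probe set of Ppard, 44.8 and 17.6 for Pparg). Of 21 measured PPAR alpha targets 15 were higher and 6 lower in the EST KO pool, with a median log2 ratio of 0.42, and 3 were at least 2-fold higher. Those were Vnn1, a pantetheinase (1402 and 3900), Cd36, a fatty acid transporter (1584 and 3941), and Pdk4, which restrains glucose oxidation (8302 and 17128).

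The receptors for estrogens and progesterone were not measured above background. Esr1, which encodes estrogen receptor alpha, read 271.8 and 319.6 at its brightest probe set, and Esr2, for estrogen receptor beta, 57.9 and 171.4. Pgr, the progesterone receptor and a well known estrogen target, read 478.6 and 386.5. With both pools below background these values have no order. Sult1e1 itself read 472.7 in WT and 17.2 in EST KO, also below background in both, so it does not check the genotype label. Genes known to be induced by estrogens in other tissues had no common direction: of 10 measured, 6 were higher and 4 lower, and their median was 0.25. It was −0.13 over 13 genes with background at the 75th percentile, and −0.03 over the 6 left without probe sets that may read several transcripts, which removed Pdzk1, Igfbp4, Ckb and Ctsd. Pdzk1, listed with the HNF4A targets too, and Igfbp4, a binding protein for insulin-like growth factors (10740 and 26603), were its 2 genes at least 2-fold higher. Ccnd1, cyclin D1, read 2237 and 4279 (1.91-fold higher). Of the 4 measured genes of estrogen handling, 3 were higher and 1 lower (median 0.43). With background at the 75th percentile Hsd17b2 and Sult1e1, the deleted gene, joined them, and the median of these 6 was −0.15. Without Sult1e1, left out after the values were seen, the median of the other 5 was 0.07. Hsd17b11 read 5359 and 12930 (2.41-fold higher), Hsd17b4, which oxidises estradiol and peroxisomal fatty acids, 1685 and 2916 (1.73-fold higher) and Cyp1b1, which hydroxylates estrogens, 1898 and 1220 (1.56-fold lower).

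Among the corticosteroid receptors, Nr3c1 (the glucocorticoid receptor) was measured and Nr3c2 (the mineralocorticoid receptor, 70.8 and 110.9) was not. Nr3c1 read 880.5 and 1279, a 1.45-fold higher level in the EST KO pool. A second probe set read 487.5 and 848.0, at least 1.25-fold higher, and the other 4 lay below background in both pools. Its log2 ratio was 0.16 in place of 0.54 with background at the 99th percentile, which lies above the WT value. Glucocorticoid targets were split, with 10 of 17 higher and 7 lower and a median of 0.09 that turned to −0.01 under quantile normalization. The 5 that were at least 2-fold higher were Pck1, the transcription factor Klf9 (4283 and 10082), the kinase Sgk1 (4416 and 9759), Errfi1, an inhibitor of the EGF receptor (9232 and 19863), and Pdk4. Of the other textbook targets of the receptor, some differed little: Fkbp5 read 3480 and 3761, Tsc22d3 2340 and 2493, and Per1 1611 and 1798. Of the 7 lower targets, Cebpd (3388 and 2197, 1.54-fold) and Zbtb16 (3162 and 2287, 1.38-fold) were furthest apart. Of 10 targets of aldosterone with a ratio, 8 were higher and 2 lower (median 0.21), led by Sgk1. Atp1b1, a sodium pump subunit, was 1.40-fold higher and Slc12a3, the thiazide-sensitive salt transporter, 1.36-fold higher.

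Of the estrogen-related receptors, which drive mitochondrial genes and bind no estrogen, only Esrrg was measured. It read 768.4 and 750.4, a log2 ratio of −0.03 that turned positive under 5 alternatives, and its second probe set gave a bound of 0.05. Esrra (501.8 and 582.1) and Esrrb (571.1 and 565.1) lay below background in both pools. Ppargc1a, the coactivator PGC-1 alpha that works with them, read 723.1 in the WT pool and 576.7, below background, in the EST KO pool, at least 1.13-fold lower. Its other 4 probe sets lay below background in both pools, as did Ppargc1b (172.3 and 590.8). Targets of this group were higher for 22 of 25 genes with a ratio and lower for 3, with a median of 0.41 and 2 genes at least 2-fold higher, Haao, an enzyme of NAD synthesis (435.3 and 1786, at least 2.64-fold), and Pdk4. Ndufs1, a complex I subunit, read 1291 and 2328 (1.80-fold higher).

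The retinoid X receptors are partners of many other receptors, among them PPARs, FXR and the vitamin D receptor. Rxra read 1424 and 1465 (1.03-fold higher) and Rxrb 918.9 and 844.2 (1.09-fold lower), both within 1 probe-level SD of 0, and Rxrg lay below background in both pools. Rarg, a retinoic acid receptor, read 802.0 and 671.3 (1.19-fold lower), and Rara and Rarb lay below background. Only 3 genes of retinoic acid response and handling were measured. Dhrs3, which turns retinal back into retinol, read 653.3 and 1104, at least 1.63-fold higher, while Tgm2 was 1.10-fold lower and Rdh10 1.05-fold higher. Both thyroid hormone receptors, Thra (663.1 and 570.7) and Thrb (517.3 and 541.9), lay below background in both pools. Of 5 measured thyroid hormone targets 4 were higher, led by Klf9 and by Me1, malic enzyme (3541 and 6599).

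Receptors known mainly from liver lay below background in both pools. These were Nr1i2 (PXR, 237.1 and 287.8), Nr1i3 (CAR, 58.2 and 60.5), Nr5a2 (LRH-1, 394.4 and 391.4) and Nr0b2 (SHP, 183.9 and 48.6), along with Nr1h3 (LXR alpha, 402.8 and 526.3). Of 15 hepatocyte markers 7 were measured, 5 higher and 2 lower, with a summed intensity over the list of 19858 and 37861, of which Ttr and Cyp2e1 (11569 and 20655) made the most. Targets of PXR and CAR had 3 genes higher and 4 lower, and LXR targets 5 higher and 5 lower. The median of −0.06 for the former changed sign under 2 alternatives and that of −0.04 for the latter under 3, among them the division of each array by its median. Gstm1, a glutathione transferase, read 4459 and 7206 (1.62-fold higher) and Scd1, a desaturase of fatty acids, 2380 and 1681 (1.42-fold lower).

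Among the orphan receptors, Nr2c2 (TR4) read 1825 and 1416 (1.29-fold lower), Nr2f2 (COUP-TFII, a receptor of veins and stroma) 1252 and 1024 (1.22-fold lower) and Nr2f6 1507 and 1823 (1.21-fold higher). Each kept its direction under all alternatives run, several of which could not turn it, and each rested on 1 measured probe set. Nr2c1 and Nr2f1 lay below background in both pools. Markers of vessels and stroma were lower beside Nr2f2: all 9 measured endothelial markers (median −0.32), 5 of 6 measured stromal markers (median −0.61) and all 3 measured smooth muscle markers (median −0.53). Over all listed genes on the array, measured or not, intensities summed to 12970 and 9631 for 11 endothelial markers, 12620 and 8456 for 10 stromal markers, and 7045 and 4725 for 5 smooth muscle markers. None of these markers is listed at 0, and their part in the Nr2f2 value was not tested. Nr4a1 (NUR77), an immediate early receptor induced by stress, read 1493 and 1699 (1.14-fold higher), and Nr4a2 and Nr4a3 lay below background in both pools.

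The p160 coactivators differed little between the pools. Ncoa1 read 831.3 and 974.1 (1.17-fold higher), Ncoa2 1155 and 1226 (1.06-fold higher) and Ncoa3 1261 and 1159 (1.09-fold lower), all within 1 probe-level SD of 0. Of 20 other measured coregulators 8 were higher and 12 lower, and their median of −0.06 changed sign under 3 alternatives, and none was 2-fold apart. Prmt1 (1545 and 965.5) and Carm1 (1694 and 1182), arginine methyltransferases that modify histones beside p160 coactivators, were 1.60-fold and 1.43-fold lower. Lcor, a ligand-dependent corepressor, read 555.0 and 1081, at least 1.60-fold higher. Among the nuclear receptors outside the members, Vdr, the vitamin D receptor, read 970.6 and 1550 (1.60-fold higher), and the clock repressors Nr1d1 (477.1 and 1124) and Nr1d2 (1320 and 1799) were at least 1.66-fold and 1.36-fold higher. Nr5a1, the steroidogenic factor of adrenal and gonad, read 920.9 and 599.9, at least 1.44-fold lower.

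**Figure D3:**
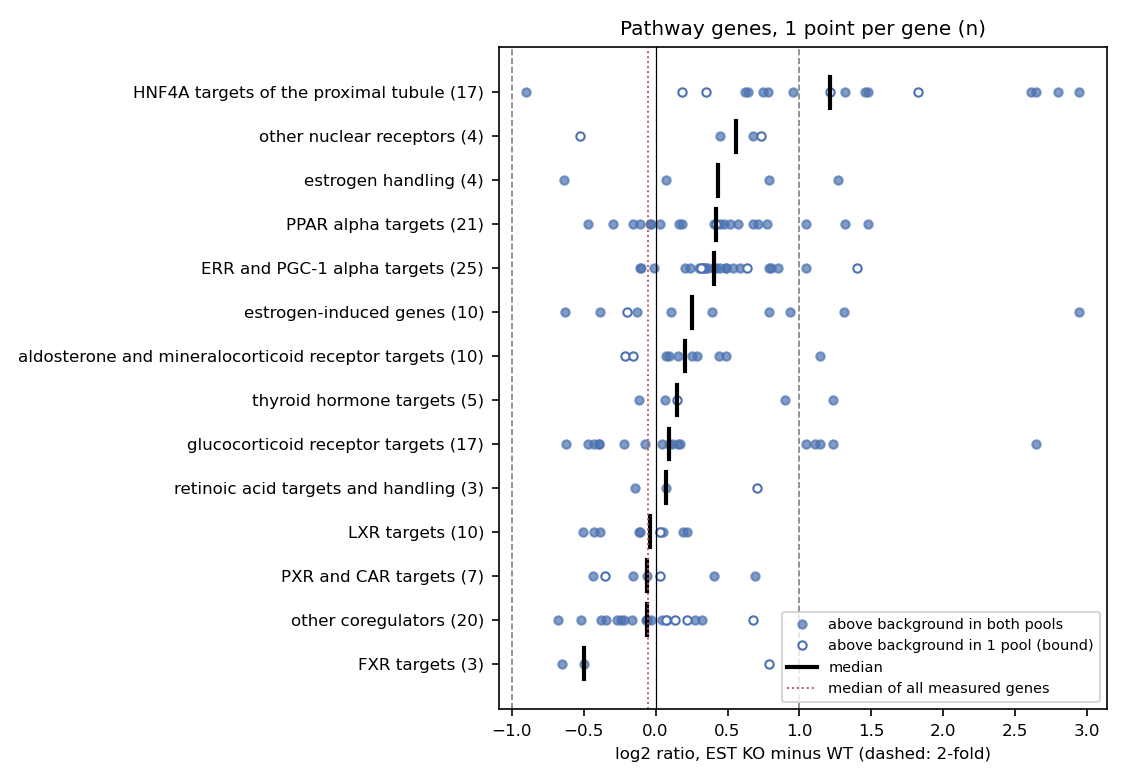
Log2 ratio (EST KO minus WT) of other genes of the pathways, 1 point per gene with a ratio; filled points lay above background in both pools, open points are bounds, black bars are list medians and the dotted line is the median of all measured genes. HNF4A targets have the highest list median (1.22), and the lists of coregulators, LXR targets and PXR and CAR targets sit within 0.06 of 0.

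Of the 18 measured members, 17 kept their sign under each alternative that gave them a ratio, and Esrrg did not. Not every alternative could turn a sign. The mean of probe sets equals the reported value where a member has 1 measured probe set. For members above background in both pools, the pseudocount, the removal of the floor and the limit to such members cannot turn a sign. The log2 ratio of the array medians was −0.11, so dividing by them could turn only lower members whose ratio lay nearer 0 than that. A member above background in 1 pool only (Ppara, Nr1h4 or Ppargc1a) has its direction fixed by the floor before any centring. Hnf4a stayed past 2-fold throughout, from a log2 ratio of 1.30 (pseudocount) to 2.23 when probe sets were left out that may read several transcripts. Among those 17, Ncoa3 (−0.01), Rxrb (−0.01) and Rxra (0.03) came nearest to 0 under an alternative.

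**Figure D4:**
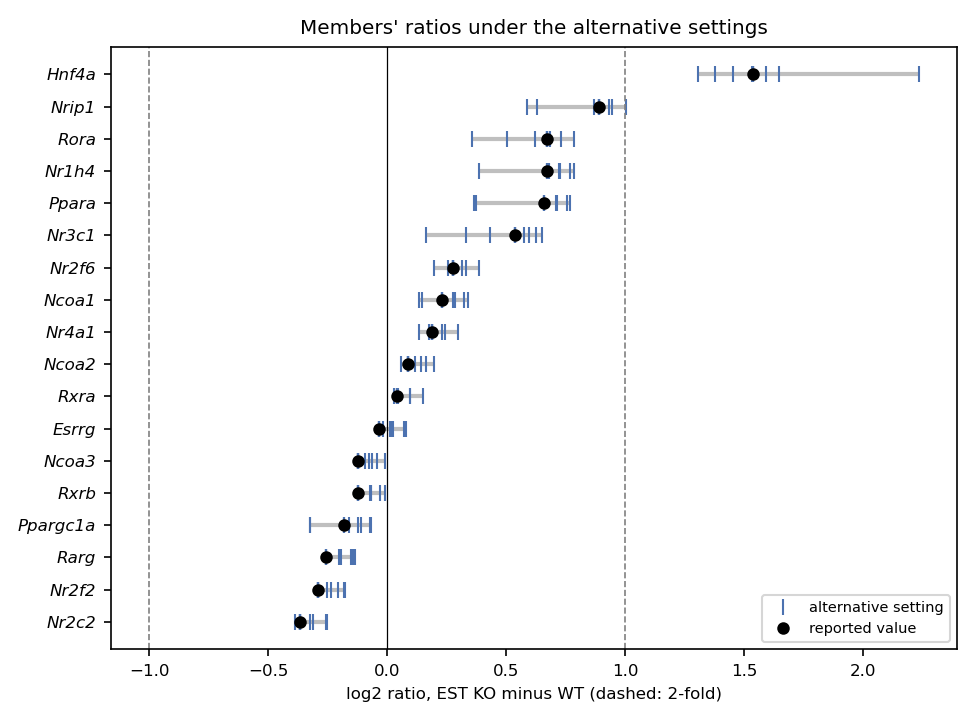
Log2 ratio (EST KO minus WT) of the 18 measured members; the black point is the reported value, each blue mark an alternative setting, and the grey line their range. Hnf4a runs from 1.30 to 2.23, Nrip1 from 0.59 to 1.00, and Esrrg crosses 0.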

How the data were processed

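RNA of the WT pool and of the EST KO pool, extracted with Trizol per the labels' protocols, was hybridised as biotinylated cRNA to 1 array each. The values used are the deposited intensity values on a linear scale, 1 per probe set and array. From the values, each array had been scaled to a mean of 500.0 without its lowest and highest 2% of values. How signals were summarised per probe set is not given in the sources used here. Array medians, 261.8 and 242.4, lay within a limit of 10% of each other, so the values were used as deposited. Precision is limited by there being 1 array per genotype.

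Of 45101 probe sets, GEO's platform annotation gives a single symbol for 34958, several for 932 and none for 9211. Symbols were updated by Entrez ID against RefSeq genes of GRCm38.p6, which matched 34754. For each gene the probe set brightest on average was used. Above background in a pool were 7480 of 18194 genes. Of these, 134 had no order, since 1 value lay between the backgrounds and the other below its own.

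No test of genotypes is possible, and lists are described by counts and medians. Members, gene lists and alternatives were chosen with earlier results of these data known. All measured members are named with values, and up to 3 genes of each pathway list by the size of the log2 ratio. Errfi1, Fkbp5, Tsc22d3, Per1, Cebpd, Zbtb16, Apom and Nr1d2 were picked after their values were seen. Alternatives were other background percentiles, a pseudocount, no floor, other scalings and other choices of probe set. Promoter windows are RefSeq's (GRCm38.p6); 38 members had 59 windows searched here. The computation recovered known fold changes in a check on simulated data. That check bears on the arithmetic only. It does not measure the error of the members' ratios, least of all for members near background. Python 3.11.15, numpy 2.4.6 and pandas 2.3.3 were used.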

Additional observations from a re-analysis of the deposited data

How the results depend on the processing

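With background at the 75th percentile, 30 members were measured in place of 18. With each array divided by its median, 2 members were at least 2-fold higher in place of 1, against 301 of 7421 genes in place of 226 of 7346. The median log2 ratio of the measured members, 0.14, ran from 0.05 (background at the 75th percentile) to 0.25 (each array divided by its median). The count of members at least 2-fold lower was 0 under every alternative run. Over all genes, 226 were at least 2-fold higher and 105 lower. The lower count was 204 with background at the 75th percentile, 59 at the 99th, 197 with no floor and 39 with a pseudocount of 657.2, which also gave 133 higher. The comparison of genes above background in both pools only was added after the data were seen. No paired analysis was possible because each genotype had 1 array. With background at the 99th percentile, Esrrg, Ppara, Rarg, Rxrb, Nr1h4, Ppargc1a and Ncoa1 had no ratio. Leaving out an array was not possible either, and for the 24 members below background in both pools the signal sets no ratio.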

Other observations

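With the lower background (75th percentile, 348.1 in WT and 325.8 in EST KO), 12 further members had a ratio. Ppargc1b, the coactivator PGC-1 beta, read 172.3 and 590.8 at its single probe set, and the bound on its log2 ratio was 0.76, the highest among the 12. Nr1h3 (LXR alpha) was at 0.39, and Rarb and Pgr were at −0.31 each. Esrra was at 0.21 and Thra at −0.22.

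Nr5a1 marks steroid-producing cells of adrenal and gonad, and of 9 adrenal markers only Dbh (1386 and 573.3) and Star (601.6 and 686.9) lay above background in a pool. The steroidogenic enzymes Cyp11a1, Cyp11b1 and Cyp21a1 lay below it in both.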
